A study of Mus musculus with 6 samples.

Results

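Proteasome subunit genes were taken as every row of the count table whose gene name starts with Psma, Psmb, Psmc, Psmd, Psme, Psmf or Psmg followed by a digit. The rule found 50 genes among the 49315 in the table, after 4 pseudogene rows were left out. They comprise 8 genes of the 20S alpha ring, 4 non-catalytic and 3 constitutive catalytic genes of the 20S beta ring, 4 immunoproteasome and thymoproteasome genes, 9 genes of the 19S base, 8 of the 19S lid, 6 activator and inhibitor genes and 7 assembly chaperones. The last row, Psmc3ip, matched by name alone, since its product is a meiotic recombination cofactor and no part of the proteasome.

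RNA was sequenced from sorted mouse hepatocytes in 2 groups of 3 libraries. The miR-206 libraries are labelled as hepatocytes that overexpress miR-206. The control libraries are labelled wild-type hepatocytes that received an empty vector. By the design text, male C57BL/6J mice (3 animals, aged 8 weeks) received a hydrodynamic injection of 20 µg of a Sleeping Beauty transposon plasmid together with 0.8 µg of a plasmid for the transposase. On the transposon plasmid a hepatocyte promoter, that of Ttr, drives miR-206 and, through an internal ribosome entry site, GFP. After 4 weeks the hepatocytes were sorted, GFP-positive cells forming the miR-206 group and GFP-negative cells the control. The design text thus takes both groups from the same injected animals, which is at odds with the empty vector of the labels. Under the design text plasmid uptake, GFP and the sort cannot be told apart from miR-206. Nothing in the labels says which control and miR-206 libraries came from the same mouse, so that p-values measure the spread between these libraries.

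The libraries held 4157947 to 5724329 counts in the miR-206 group and 8966590 to 15244017 in the control group. Mitochondrially encoded genes took 11.2%, 63.8% and 48.7% of the counts in miR-206 replicates 1 to 3, and 36.0%, 9.16% and 10.4% in control replicates 1 to 3. Control 1 stood apart from the other controls, with correlations of log2 levels of 0.887 and 0.890 against 0.981 between those. A background was read from 1429 receptor genes of smell and pheromone sensing, active in sensory neurons. It came to 5.31, 3.61 and 5.24 counts per exonic kb in the miR-206 libraries and 2.95, 1.40 and 1.22 in the controls. At that density, background would make up 20.9%, 17.7% and 19.3% of all proteasome gene counts in the miR-206 libraries and 2.32%, 0.410% and 0.398% in the controls. Mir206 had 0 counts in each of the 6 libraries, where the limit that a count of 0 allows is 0.311 to 0.546 CPM. These libraries were made for mRNA, and the mature microRNA was not measured. The hepatocyte marker Alb was abundant in every library, at 145929, 34286 and 88921 counts in the miR-206 group and 221413, 729241 and 667994 in the control group.

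The proteasome degrades proteins marked with ubiquitin. Its 20S core is a barrel of alpha and beta rings with the proteolytic sites on 3 beta subunits, and its 19S cap binds, deubiquitinates and unfolds the substrate and feeds it into the barrel. In cells exposed to interferon the 3 catalytic beta subunits are replaced by immunoproteasome counterparts, which favour peptides for antigen presentation. The transcription factor Nfe2l1 induces most subunit genes together when proteasome activity is short, and liver, a tissue with heavy protein synthesis, depends on it for protein turnover.

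MicroRNAs lower targets that pair with their seed, bases 2 to 8, mainly in the 3′ UTR. The mature strand from RefSeq (GRCm38.p6, chromosome 1, 20679055 to 20679076, plus strand) is shown with its seed in capitals, followed by the matches found in the members (GENCODE M21 transcripts, capitals marking the 7 paired bases), which show how sparse these are in the family.
mmu-miR-206-3p: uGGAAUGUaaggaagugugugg
Psma3 site: atgcattaaaaACATTCCtgtattttgcca
Psma7 site: cttgcttaacaACATTCCcactcccatctg
Psmf1 site: ttgtagcatcgACATTCCccatggctgtac
Counting the longest 3′ UTR per gene, 3 of 50 members (6%) held the match ACATTCC, against 1849 of 16822 tested genes with a 3′ UTR (11%). Members had shorter 3′ UTRs, with a median of 295 bases against 1112. None of the 3 sites was followed by the A that makes an 8mer. With the counts as deposited, the log2 fold changes of the genes with a site were -2.76 for Psma3, -3.23 for Psma7 and -1.88 for Psmf1. With background subtracted they were 0.09 for Psma3 and -0.32 for Psma7, and Psmf1 was not in that fit. Whether a site goes with a larger fall was not tested.

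Transcripts of almost the whole proteasome were lower in miR-206 than in control cells with the counts as deposited. The summed level of the 50 genes was 504, 581 and 556 CPM in the miR-206 libraries and 2640, 5530 and 5450 CPM in the controls (CPM, counts relative to library size scaled by TMM, as everywhere here). Of 49 members tested, 46 fell and 1 rose by edgeR at an adjusted p under 0.05, where 29.6% of all 24382 tested genes fell and 25.8% rose, and 40.6% of protein-coding genes fell. The median log2 fold change of the members was -3.11, against 0.45 over all tested genes. In 46 of 50 members every miR-206 library lay under every control, and in 1 every one lay above, against 30.3% and 36.7% of all tested genes. In bulk samples fewer cells of a type and less RNA per cell cannot be told apart.

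How far the family fell depended on scale and background. After the receptor-gene background was subtracted and the fit was restricted to expressed nuclear protein-coding genes, 13 of 46 members fell and 3 rose, where 15.8% of 4295 genes fell and 19.5% rose. The corrected median was -0.50, against -0.13 over those genes. The filter averaged over both groups. Of the 46 members in this fit 40 lay under 10 times the background in miR-206 cells and passed through the controls, among them 11 of the 13 that fell and all 3 that rose, so that their corrected values rest on few counts above background on the miR-206 side. Leaving out control replicate 3 left 4 of 43 that fell and 2 that rose (5.35% and 8.83% of all genes), and leaving out control replicate 2 left 6 of 43 and 2 (6.63% and 10.6%). Without miR-206 replicate 3, 6 of 47 fell and 3 rose (8.51% and 11.2% of all genes), and without miR-206 replicate 2, 17 of 47 fell and 3 rose (17.8% and 18.6%). Without control replicate 1, 14 of 46 fell and 7 rose (17.5% and 22.8%), and without miR-206 replicate 1, 10 of 47 fell and 3 rose (13% and 13.7%). When corrected counts were scaled on hepatocyte identity genes, 23 of 46 fell and 1 rose, against 27.6% and 6.89% of all genes. With hepatocyte scaling of the deposited counts, 17 of 49 fell and 3 rose, where 3.66% of all genes fell and 59.1% rose, and the members' median was -0.67 while that of all genes moved to 2.48, a difference of -3.15. The family's median was thus negative on each of these scales.

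As a share of each library's own nuclear counts the order was the same. Background was subtracted both from the family's counts and from the nuclear counts. On that basis proteasome genes took 0.104%, 0.196% and 0.15% in the miR-206 libraries and 0.363%, 0.388% and 0.385% in the controls. The groups did not overlap. Hepatocyte identity genes, taken the same way, held 21.6%, 12.6% and 18% in the miR-206 libraries and 14.9%, 18% and 17.9% in the controls, and overlapped. Of these 25 genes 16 fell and none rose as deposited, and 4 fell and 12 rose after correction.

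**Figure D1:**
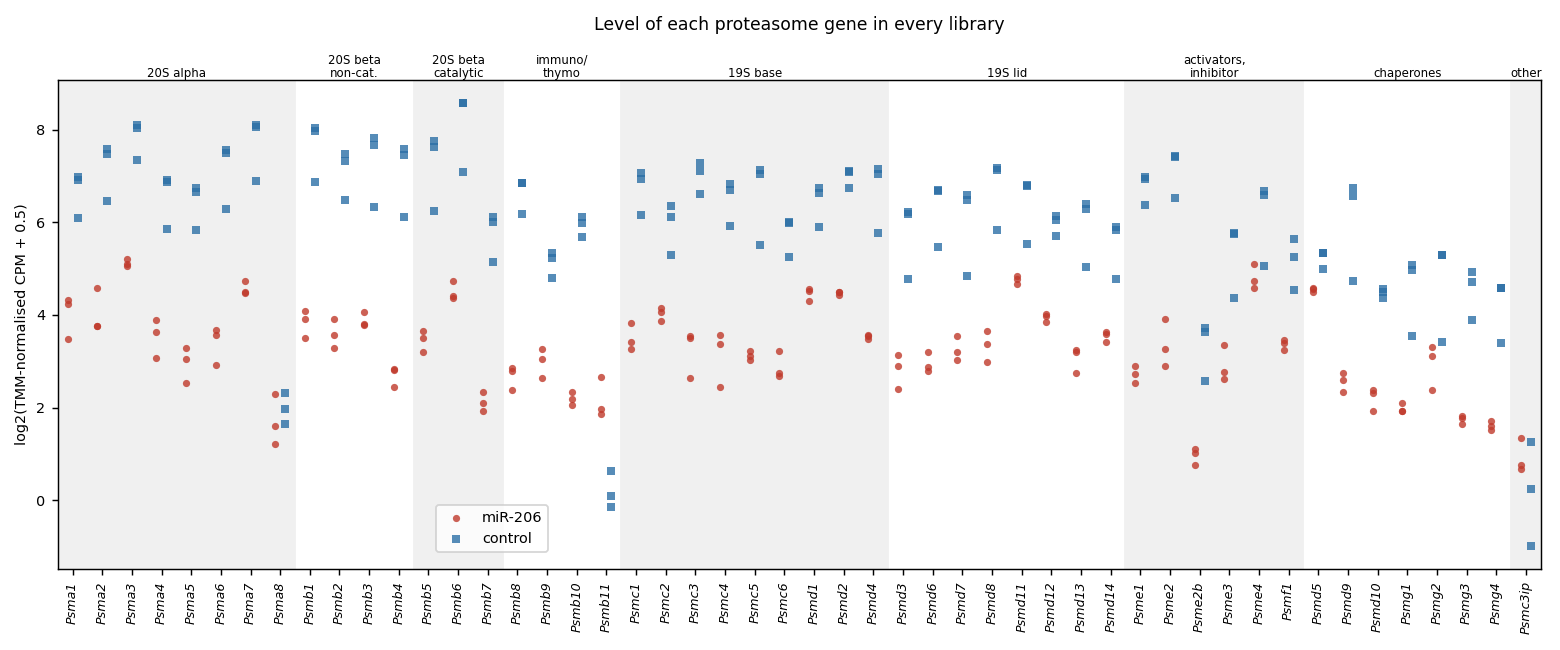
Level of each of the 50 genes in every library as log2 of TMM-normalised CPM plus 0.5, by functional class, with miR-206 libraries as circles and control libraries as squares. All but 4 genes show the miR-206 circles below the control squares; Psmb11 shows the reverse, and Psma8, Psme4 and Psmc3ip overlap.

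The beta ring of the 20S core held the lowest class medians as deposited. After correction their medians of -0.96 each lay above that of the immunoproteasome and thymoproteasome class (-1.45). All 4 non-catalytic beta genes and all 3 constitutive catalytic genes fell with the counts as deposited, with medians of -3.76 and -3.85. After correction 4 of these 7 fell (Psmb1, Psmb4, Psmb5 and Psmb7). Psmb4, a structural subunit whose tail clamps the neighbouring beta ring (chromosome 3, 94884093 to 94886961), had the lowest value of all members as deposited, while Psmd9 and Psmb7 lay lower after correction. Its level was 6.58, 4.91 and 6.55 CPM in the miR-206 libraries, against 68.4, 191 and 174 CPM in the controls. No miR-206 library came near a control. The log2 fold change was -4.58 (SE 0.53, edgeR adjusted p = 0.000287), and -1.85 (SE 0.25, adjusted p = 0.00368) after correction, where it was called in each of the 6 fits that left out 1 library. Psmb4 stood at 4.67 times the background in miR-206 cells and 359 times in control cells, so it passed the filter through the controls. Those 6 fits used the same filter and leave out the error of the subtraction. Psmb3, another structural subunit and the one with the smallest fall among the non-catalytic genes, had 13.5, 16.2 and 13.2 CPM in miR-206 cells and 80.1, 226 and 203 CPM in control cells. Its fold change was -3.57 (SE 0.51, adjusted p = 0.000478), and its corrected value of -0.65 did not pass (adjusted p = 0.0566).

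Among the catalytic genes, Psmb5, the chymotrypsin-like subunit and the target of bortezomib (chromosome 14, 54614119 to 54618022), was at 10.8, 12 and 8.64 CPM in the miR-206 libraries and 75.6, 214 and 196 CPM in the controls. Control 1 was the lowest control, still several-fold above the highest miR-206 library. Psmb5 fell by 3.95 on the log2 scale (SE 0.52, adjusted p = 0.000371) and by 0.96 after correction (SE 0.24, adjusted p = 0.0199), a call lost without miR-206 replicate 3, control replicate 2 or control replicate 3 (all fits between -1.18 and -0.81). A microRNA gene, Mir686, lies within 12.1% of its exonic bases. Psmb6, the caspase-like subunit (chromosome 11, 70525367 to 70527858), was at 20.6, 26.2 and 20.0 CPM in miR-206 cells and 135, 383 and 381 CPM in control cells. It fell with the counts as deposited (-3.75, SE 0.55, adjusted p = 0.000534), and its corrected value was -0.75 (adjusted p = 0.0501). One of its pseudogenes, Psmb6-ps2, which may share reads with it, had 30, 42 and 47 counts in miR-206 cells and 8, 32 and 15 in control cells. Psmb7, the trypsin-like subunit (chromosome 2, 38588036 to 38644087), was at 3.29, 4.55 and 3.8 CPM in miR-206 cells and 34.9, 63.7 and 68.6 CPM in control cells. Its 26, 25 and 29 counts in the miR-206 libraries were 1.65 times the background. Psmb7 fell by 3.85 (SE 0.40, adjusted p = 0.000271) and by 2.12 after correction (SE 0.40, adjusted p = 0.00894), the second value resting on those few counts above background. It also shares 11.8% of its exonic bases with Nek6 on the other strand.

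The alpha ring, which gates entry to the core, fell in 7 of 8 genes with a median of -3.16. After correction 1 of 7 tested fell and the median was -0.32. That gene was Psma6 (chromosome 12, 55384222 to 55418454), at 12.3, 7.09 and 11.3 CPM in miR-206 cells and 77.8, 179 and 187 CPM in control cells. It fell by 3.85 (SE 0.50, adjusted p = 0.000366) and by 0.92 after correction (SE 0.26, adjusted p = 0.0297), a call lost without miR-206 replicate 3, control replicate 2 or control replicate 3 (all fits between -1.16 and -0.80). The remaining 6 somatic alpha genes had corrected values from -0.74 for Psma5 to 0.11 for Psma1. Psma8, an alpha subunit of the testis, had 35, 14 and 14 counts in the miR-206 libraries and 34, 33 and 23 in the controls. That is 1.78 times the background in miR-206 cells and 6.48 times in control cells, its groups overlapped, and it did not pass the test (-0.25, SE 0.50, adjusted p = 0.677).

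The immunoproteasome genes stood far above background in control cells, and their corrected values ran from -1.78 to 0.20. In miR-206 cells Psmb8, Psmb9 and Psmb10 stood at 2.67, 2.99 and 3.6 times the background. Their corrected values thus rest on few counts above it. Psmb8, Psmb9 and Psmb10 all fell with the counts as deposited, and Psmb8 and Psmb10 fell after correction. Psmb8, which takes the place of Psmb5 (chromosome 17, 34197721 to 34201454), was at 6.45, 4.73 and 6.68 CPM in miR-206 cells and 71.5, 114 and 114 CPM in control cells. Its fold change was -4.06 (SE 0.42, adjusted p = 0.000271), and -1.78 (SE 0.31, adjusted p = 0.00715) after correction, called in each of the 6 corrected fits without 1 library. An antisense gene covers 14.7% of its exonic bases. Psmb10, which takes the place of Psmb7 (chromosome 8, 105935735 to 105938444), was at 4.55, 3.64 and 4.06 CPM in miR-206 cells and 50.9, 62.4 and 69.1 CPM in control cells. It fell by 3.89 (SE 0.35, adjusted p = 0.000271) and by 1.45 after correction (SE 0.36, adjusted p = 0.0188), a call lost without miR-206 replicate 3 or control replicate 3 (all fits between -1.65 and -1.12). Psmb9, which takes the place of Psmb6 (chromosome 17, 34181987 to 34187764), was at 7.72, 9.09 and 5.76 CPM in miR-206 cells and 27.3, 36.8 and 39.9 CPM in control cells. It fell by 2.21 (SE 0.33, adjusted p = 0.000565), but its corrected value was 0.20 (SE 0.39, adjusted p = 0.709). The gene lies head to head with Tap1 and shares 5.79% of its exonic bases with it, on the other strand.

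Because a ratio within a library does not depend on scaling, the 3 immunoproteasome genes were set against their constitutive counterparts, per exonic kb. The log2 ratio of Psmb8 to Psmb5 was -2.64, -3.24 and -2.28 in miR-206 cells and -1.99, -2.82 and -2.70 in control cells, and the groups overlapped (exact two-sided permutation p = 0.6). That of Psmb10 to Psmb7 was 1.47, 0.69 and 1.10 in miR-206 cells and 1.55, 0.97 and 1.01 in control cells (p = 0.9, exact). The ratio of Psmb9 to Psmb6 was -2.38, -2.48 and -2.75 in miR-206 cells and -3.27, -4.34 and -4.22 in control cells. Every miR-206 library lay above every control, by 1.41 on average, with p = 0.1, the smallest an exact test of 3 against 3 can give, and 0.3 adjusted over the 3 pairs. With background subtracted the difference was 0.93 (exact p = 0.2) and the groups overlapped. The difference for Psmb10 to Psmb7 was -0.09 as deposited, but 0.75 with background subtracted, and that for Psmb8 to Psmb5 was -0.22 as deposited, -0.83 with background subtracted (exact p = 0.2), and 0.04 without miR-206 replicate 2 or control replicate 1.

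**Figure D2:**
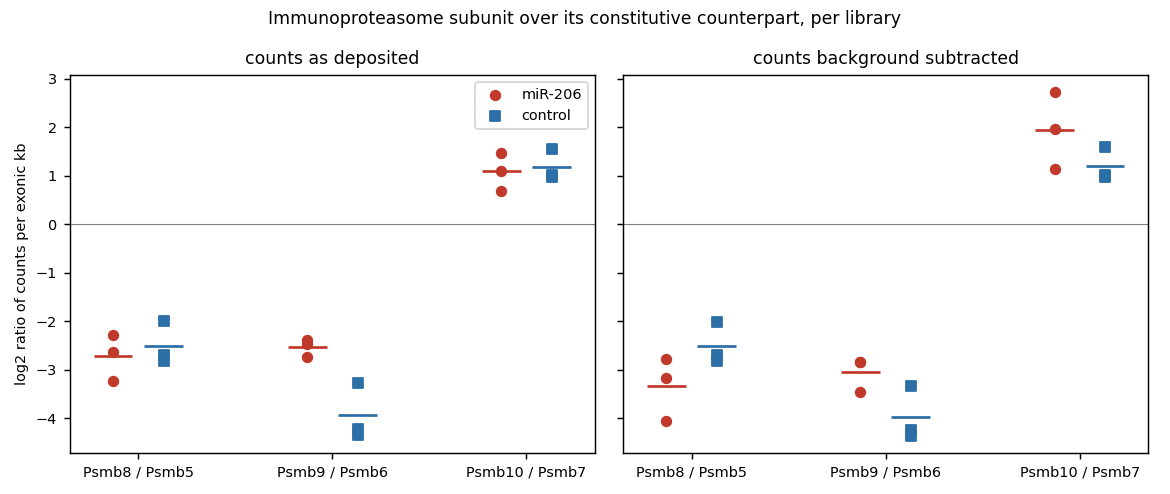
Log2 ratio of counts per exonic kb of each immunoproteasome gene over its constitutive counterpart, with miR-206 libraries as circles, control libraries as squares and group means as bars, as deposited (left) and with background subtracted (right). Psmb9 over Psmb6 is the one ratio whose groups are apart as deposited, and no ratio is apart after subtraction.

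With the counts as deposited, Kupffer cell and endothelial markers moved with these genes, and lymphocyte markers went both ways. Over all tested genes 29.6% fell and 25.8% rose as deposited, and 15.8% fell and 19.5% rose after correction. All 12 Kupffer cell markers fell (8 after correction), and their summed level ran from 51.5 to 62.6 CPM in miR-206 cells and from 409 to 1750 CPM in control cells. Of 12 lymphocyte markers tested 5 fell and 3 rose (13 in the list), with sums of 88.0 to 100 CPM in miR-206 cells and 447 to 466 CPM in control cells. Most of the control sum was the antibody light chain gene Igkc, without which the sums were 86.2 to 98.8 CPM in miR-206 cells and 120 to 157 CPM in control cells. The granule gene Nkg7, the one lymphocyte marker in the corrected fit, where it fell, was counted at 0, 1 and 0 in the miR-206 libraries and at 71, 131 and 103 in the controls. All 10 sinusoidal endothelial markers fell (after correction 1 of 9 fell and 3 rose), with sums of 132 to 146 CPM in miR-206 cells and 554 to 652 CPM in control cells. Their part in the immunoproteasome result was not tested. Of 8 interferon-regulated genes of antigen processing 7 fell as deposited. After correction 1 of 7 fell, the interferon factor Irf1 (-2.11, SE 0.56, adjusted p = 0.0237, at 1.44 times the background in miR-206 cells, so with few counts above it), and 1 rose, the peptide trimming enzyme Erap1 (1.53, SE 0.37, adjusted p = 0.0173), which had fallen with the counts as deposited (-1.23). Tap2, a subunit of the peptide transporter, fell as deposited (-2.99, SE 0.36, adjusted p = 0.000302) and had a corrected value of -1.08 (adjusted p = 0.0814).

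Psmb11, the thymoproteasome subunit made in the thymic cortex (chromosome 14, 54621433 to 54629556), was the 1 member that rose with the counts as deposited. It had 27, 32 and 24 counts in the miR-206 libraries and 3, 10 and 5 in the controls, a log2 fold change of 2.57 (SE 0.60, adjusted p = 0.00549). Those counts are 1.22 times the background in miR-206 cells and 0.675 times in control cells, and the call was lost without miR-206 replicate 2 (2.13, adjusted p = 0.0542). Psmc3ip, too low to be tested, had 16, 6 and 9 counts in miR-206 cells and 0, 18 and 6 in control cells.

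The 19S base unfolds substrates with a ring of 6 ATPases, Psmc1 to Psmc6, and carries the large scaffold subunits Psmd1 and Psmd2 and the ubiquitin receptor Psmd4. All 9 base genes fell as deposited, from -3.81 to -1.99. After correction 2 fell, the ATPases Psmc3 and Psmc5. Psmc3 (chromosome 2, 91054009 to 91066369) was at 5.69, 10.9 and 11.1 CPM in miR-206 cells and 97.1, 137 and 155 CPM in control cells. It fell by 3.81 (SE 0.46, adjusted p = 0.000309) and by 1.17 after correction (SE 0.37, adjusted p = 0.0425), a call that held without miR-206 replicate 2 but in none of the other 5 fits that left out 1 library (-1.43 to -0.93). It shares 8.25% of its exonic bases with Slc39a13 on the other strand. Psmc5 had a corrected value of -0.75 (adjusted p = 0.043), called without control replicate 1 but in none of the other 5 (-0.88 to -0.59). At the other end was the ATPase Psmc2 (chromosome 5, 21785283 to 21803787), at 14.0, 17.3 and 16.1 CPM in miR-206 cells and 38.8, 68.4 and 81.6 CPM in control cells. It fell as deposited (-1.99, SE 0.38, adjusted p = 0.00194), whereas its corrected value was 0.70 (SE 0.24, adjusted p = 0.0547). The scaffold gene Psmd1 had -2.03 as deposited and a corrected 0.61 (adjusted p = 0.0737).

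The 19S lid holds the deubiquitinase Psmd14, which strips ubiquitin chains from the substrate. All 8 lid genes fell as deposited, from -3.53 to -1.75, and after correction 1 fell, Psmd6 (-0.87, SE 0.27, adjusted p = 0.0395), and 1 rose. The call of Psmd6 was lost without miR-206 replicate 1 or 3 or control replicate 2 or 3 (all fits between -1.16 and -0.77). Psmd8, with the lowest value of the lid (chromosome 7, 29174188 to 29180701), was at 12, 7.46 and 9.82 CPM in miR-206 cells and 56.2, 139 and 144 CPM in control cells. It fell by 3.53 (SE 0.49, adjusted p = 0.000433), with a corrected value of -0.79 (adjusted p = 0.053). Psmd11, which holds lid and core together (chromosome 11, 80428615 to 80473248), was at 25.0, 28 and 26.7 CPM in miR-206 cells and 45.8, 110 and 111 CPM in control cells. It fell as deposited (-1.75, SE 0.43, adjusted p = 0.0069) and rose after correction (1.09, SE 0.21, adjusted p = 0.00938), called in each of the 6 corrected fits without 1 library but not when corrected counts were scaled by library size (0.35) or on hepatocyte genes (0.51). Psmd11 stood at 6.15 times the background in miR-206 cells. The deubiquitinase Psmd14 had -2.08 as deposited and 0.70 after correction (adjusted p = 0.0539).

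Activators bind the core in place of the 19S cap. Psme1 and Psme2 form the interferon-inducible ring, Psme3 a nuclear ring, Psme4 a single-chain cap linked to histone turnover, and Psmf1 is an inhibitor of the core in vitro. All 6 genes of the class fell as deposited. Psme1 (chromosome 14, 55578123 to 55581529) was at 5.31, 6.91 and 6.15 CPM in miR-206 cells and 82.2, 121 and 126 CPM in control cells. It fell by 4.16 (SE 0.41, adjusted p = 0.000271) and by 1.63 after correction (SE 0.30, adjusted p = 0.0078), called in each of the 6 corrected fits without 1 library. Psme1 stood at 4.06 times the background in miR-206 cells and passed the filter of these fits through the controls. Its neighbour and partner Psme2 (chromosome 14, 55587441 to 55591113) was at 6.96, 14.6 and 9.16 CPM in miR-206 cells and 91.4, 170 and 172 CPM in control cells. Psme2 fell by 3.83 (SE 0.49, adjusted p = 0.00034) and by 1.00 after correction (SE 0.33, adjusted p = 0.0469), called without miR-206 replicate 2 but in none of the other 5 such fits (-1.47 to -0.84). Psme2b is a close copy of Psme2, so that their reads may be shared. It had 12, 9 and 9 counts in miR-206 cells and 41, 122 and 105 in control cells.

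Psme4 was the activator that stood apart (chromosome 11, 30771726 to 30880361). It was at 23.5, 26.0 and 33.6 CPM in miR-206 cells and 32.8, 95.2 and 101 CPM in control cells, so that control 1 lay within the miR-206 range. Its fall as deposited (-1.46, SE 0.46, adjusted p = 0.0224) was lost in 4 of the 6 fits without 1 library, at -1.49 and -1.55 without miR-206 replicates 1 and 2 and -1.36 and -1.30 without control replicates 2 and 3. After correction it rose (1.36, SE 0.27, adjusted p = 0.0101), in each of the 6 such fits, but did not pass when corrected counts were scaled by library size (0.61) or on hepatocyte genes (0.77). Psme4 stood at 4.94 times the background in miR-206 cells.

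Assembly chaperones build the complex and leave it when it is complete. Of 7 genes 6 fell as deposited. Psmd9, a chaperone of the base (chromosome 5, 123169413 to 123250131), was at 5.57, 6.18 and 4.58 CPM in miR-206 cells and 26.2, 107 and 94.6 CPM in control cells. It fell by 3.8 (SE 0.55, adjusted p = 0.000506). Its counts of 44, 34 and 35 in the miR-206 libraries were 1.10 times the background, and the corrected value of -3.67 (SE 0.80, adjusted p = 0.0135) has almost no counts above background behind it. Psmd9 also shares 25.5% of its exonic bases with Gm26745, a long noncoding RNA gene on the other strand. Psmd5, another chaperone of the base (chromosome 2, 34849734 to 34874968), was at 23.5, 22.2 and 23.2 CPM in miR-206 cells and 31.2, 40.1 and 40.2 CPM in control cells. The groups did not overlap, but the difference did not pass the test (-0.69, SE 0.30, adjusted p = 0.0698). After correction Psmd5 rose (1.95, SE 0.28, adjusted p = 0.00463), and it also passed when corrected counts were scaled by library size (1.19) or on hepatocyte genes (1.31). Only 4 of the 6 corrected fits without 1 library tested Psmd5, and it rose in those 4 (1.85 to 2.24). It stood at 4.74 times the background in miR-206 cells. The chaperones of the core, Psmg1 to Psmg4, fell as deposited (-3.02 to -1.98), and their corrected values from -1.53 for Psmg3 to 0.94 for Psmg2 did not pass the test.

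**Figure D3:**
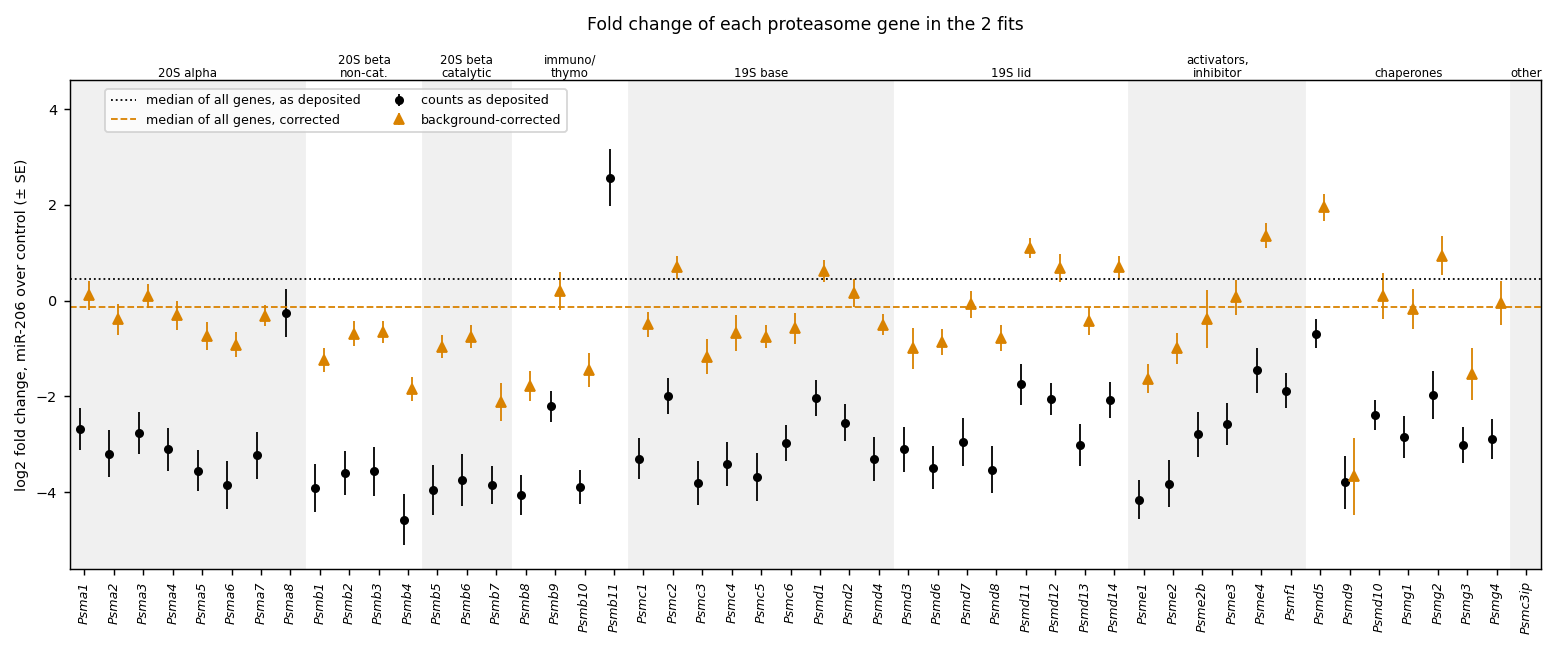
Log2 fold change of miR-206 over control for each gene, with its SE, from the counts as deposited (circles) and after background correction (triangles), with the median of all tested genes as dotted (0.45) and dashed (-0.13) lines. Genes with no triangle or no symbol were not tested in that fit; the spread among members after correction runs from Psmd9 at -3.67 to Psmd5 at 1.95.

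The makeup of the family, as shares within each library, differed between the groups. Non-catalytic beta genes made up 7.96%, 8.96% and 8.19% of proteasome gene counts in the miR-206 libraries and 13.4%, 15.3% and 14.6% in the controls. Constitutive catalytic genes made up 6.88%, 7.36% and 5.84% in the miR-206 libraries and 9.30%, 11.9% and 11.9% in the controls. For both classes the miR-206 libraries lay under all controls, and so they did with background subtracted. Lid genes made up 18.5%, 16.5% and 16.4% in the miR-206 libraries and 11.8%, 13% and 13.4% in the controls. Assembly chaperones made up 10.2%, 8.02% and 8.73% in the miR-206 libraries and 4.67%, 5.27% and 5.12% in the controls. Lid and chaperone shares were higher in every miR-206 library, also with background subtracted. The chaperone difference rested on Psmd5. Without it the other 6 chaperones made up 5.52%, 4.2% and 4.57% in the miR-206 libraries and 3.49%, 4.54% and 4.39% in the controls, and the groups overlapped. Activators made up 10.6%, 11.9% and 11.6% in the miR-206 libraries and 9.66%, 9.08% and 9.20% in the controls, higher in all 3, also with background subtracted (9.65% against 9.55% at the nearest). The 6 genes of this class went both ways, with 3 higher and 2 lower in every miR-206 library (2 and 2 with background subtracted as well). Psme1 and Psme2 were the 2 lower genes. Psme4, whose shares are given below, held the largest share of the 3 higher genes in miR-206 cells. The class was not summed without Psme4. The immunoproteasome and thymoproteasome class overlapped as deposited. With background subtracted it held 3.27%, 3.01% and 2.31% in the miR-206 libraries and 5.62%, 3.85% and 4.08% in the controls, without overlap. The shares of the alpha ring and of the base overlapped between the groups.

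Among single genes, 16 of 50 had shares in the miR-206 libraries that all lay under the controls, and in 13 they all lay above. Shares within the family sum to 100%, so that lower shares of some genes raise those of others. No count of this kind was taken over other genes. With background subtracted as well, 13 stayed lower and 9 stayed higher. The 13 include all 4 non-catalytic beta genes, Psmb5, Psmb7, Psmb8, Psmb10, Psme1 and Psme2. The 9 were Psmc2, Psmd1, Psmd11, Psmd12, Psmd14, Psme4, Psmf1, Psmd5 and Psmg2. All 9 had negative log2 fold changes as deposited, from -2.08 for Psmd14 to -0.69 for Psmd5, so that a higher share is not a higher level. Psmd5 stood at 4.67%, 3.82% and 4.17% of the family's counts in miR-206 cells and 1.18%, 0.724% and 0.738% in control cells. Psmd11 took 4.97%, 4.82% and 4.80% in miR-206 cells and 1.74%, 1.99% and 2.04% in control cells. Psme4 took 4.67%, 4.48% and 6.05% in miR-206 cells and 1.24%, 1.72% and 1.85% in control cells.

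**Figure D4:**
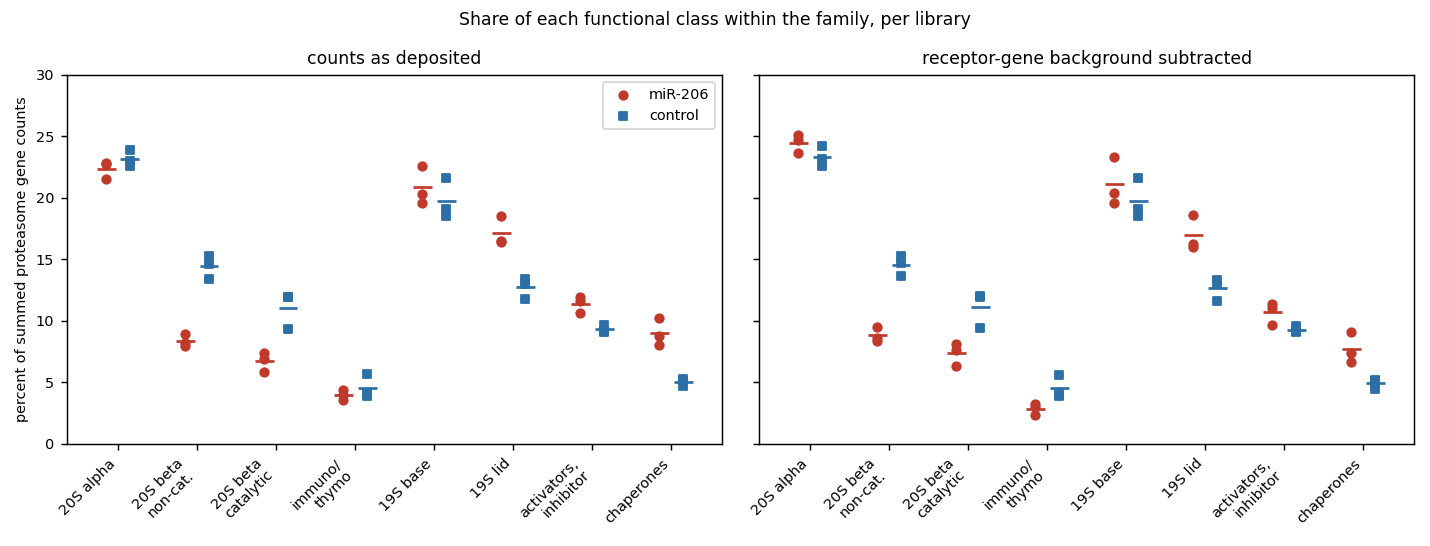
Share of each functional class in the summed counts of the 50 genes, in percent per library, with miR-206 libraries as circles, control libraries as squares and group means as bars, as deposited (left) and with background subtracted (right). Both beta ring classes sit lower in the miR-206 libraries and the lid and chaperones higher, in both panels.

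Per exonic kb the constitutive catalytic genes Psmb5 and Psmb6 held the highest levels of the family in both groups, at 11.6 and 11.9 CPM per kb in miR-206 cells and 180 and 160 CPM per kb in control cells. Psmb4 ranked 29 in miR-206 cells and 7 in control cells, and Psmd5 ranked 27 in miR-206 cells and 47 in control cells. Across the 49 tested members the log2 fold change as deposited rose with log2 exonic length (Pearson 0.382, Spearman 0.408), a description over genes that share the same libraries and a background that grows with length. After correction the values were 0.178 and 0.236 over 46 members.

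Promoters of 42 members were found in the RefSeq table (GRCm38.p6), as windows of 300 bases. The antioxidant response element, bound by Nfe2l1 and Nfe2l2, was searched as TGANNNNGC, the interferon-stimulated element as GAAA, any 2 bases and GAAA, and the CCAAT box as CCAAT, each on both strands. The first was in 26 of 45 member promoters (57.8%) and 41.3% of all 32851 promoters, the second in 5 (11.1%) and 3.44%, and the third in 15 (33.3%) and 37.4%. The interferon match was found in Psmb3, Psmd4, Psmd9, Psme1 and Psmg4, but not in Psmb8, Psmb9 or Psme2, whose promoters were searched too. Shown are Psmb4, with the largest fall as deposited, Psmd5, with the largest corrected rise, and Psme1, the interferon-inducible activator, with matches in capitals.
Psmb4 promoter (chr3:94886909-94887208, minus strand): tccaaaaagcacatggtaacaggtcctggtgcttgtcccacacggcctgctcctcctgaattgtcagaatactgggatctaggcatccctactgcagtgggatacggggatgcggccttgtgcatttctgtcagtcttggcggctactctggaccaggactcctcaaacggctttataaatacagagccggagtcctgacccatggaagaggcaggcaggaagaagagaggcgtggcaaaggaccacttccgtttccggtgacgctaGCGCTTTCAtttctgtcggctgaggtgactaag
Psmd5 promoter (chr2:34870913-34871212, minus strand): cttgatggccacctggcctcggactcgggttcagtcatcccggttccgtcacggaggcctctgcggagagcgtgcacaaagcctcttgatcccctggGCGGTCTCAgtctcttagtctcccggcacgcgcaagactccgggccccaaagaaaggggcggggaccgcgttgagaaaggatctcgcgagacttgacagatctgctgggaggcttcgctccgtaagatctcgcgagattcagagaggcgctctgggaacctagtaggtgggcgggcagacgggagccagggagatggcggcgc
Psme1 promoter (chr14:55578244-55578543, plus strand): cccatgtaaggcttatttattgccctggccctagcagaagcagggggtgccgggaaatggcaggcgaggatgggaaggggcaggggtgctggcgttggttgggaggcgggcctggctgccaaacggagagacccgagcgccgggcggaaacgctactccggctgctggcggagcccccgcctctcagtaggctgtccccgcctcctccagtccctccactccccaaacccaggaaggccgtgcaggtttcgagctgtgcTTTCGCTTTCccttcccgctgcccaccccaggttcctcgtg
The capitals are the reverse strand of the antioxidant element in Psmb4 and Psmd5 and of the interferon element in Psme1. Psmb4 and Psmd5 both hold the antioxidant match, at corrected values of -1.85 and 1.95. They were picked by their values, and the part of the motif was not tested.

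With the counts as deposited, the partners of the proteasome moved with it. Of 26 ubiquitin and proteasome partner genes 24 fell and none rose, with a median of -2.92. In the same fit 29.6% of all tested genes and 40.6% of protein-coding genes fell. After correction 6 of 22 partner genes fell and 1 rose, where 15.8% of 4295 genes fell and 19.5% rose. Uba1, the main ubiquitin-activating enzyme, fell by 3.87 (SE 0.44, adjusted p = 0.000281) and by 1.78 after correction (SE 0.35, adjusted p = 0.01). It stood at 2.12 times the background in miR-206 cells, so the second value rests on few counts above it. Nfe2l2, a regulator of antioxidant and some proteasome genes, fell by 3.04 as deposited (SE 0.36, adjusted p = 0.0003), with a corrected value of -0.76 (adjusted p = 0.109). The genes that follow were picked after their values were seen. Ubb, which encodes ubiquitin, and Rps27a, which encodes it fused to a ribosomal protein, fell in both fits, with corrected values of -1.37 and -1.04. So did the small lid subunit Sem1 (corrected -2.04, SE 0.38, adjusted p = 0.0082), at 2.37 times the background in miR-206 cells. Usp14, a deubiquitinase that docks on the base, rose after correction (1.87, SE 0.22, adjusted p = 0.00226) and did not pass as deposited (-0.87, adjusted p = 0.0576). It stood at 4.88 times the background in miR-206 cells, and its corrected value under other scalings is not given here. Nfe2l1, the inducer of subunit genes, fell as deposited (-2.51) and had a corrected value of -0.07 (adjusted p = 0.929).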

How the data were processed

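The authors deposited raw counts per Ensembl gene for 6 libraries, whole numbers with no normalisation. The submitters' processing notes name GRCm 38 and mm 10. Which aligner, counter, annotation and strand setting were used is not given in the sources used here. Counts of overlapping genes and close copies are therefore uncertain. Of 49315 IDs, 49056 matched GENCODE M21, which gave exonic lengths and positions.

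Genes passing filterByExpr (minimum count 10) were TMM-normalised and tested with edgeR 4.0.16 (quasi-likelihood, robust, group as the only term), with Benjamini-Hochberg adjustment over all genes tested and a threshold of 0.05. SE is the log2 fold change over the root of F. The corrected fit subtracted receptor counts per exonic kb (1429 genes, 5253 kb) times exonic length and kept nuclear protein-coding genes averaging at least 10 times that background. It leaves out the error of the subtraction, and exonic length counts every annotated isoform. Ratios used a pseudocount of 0.5 counts. Floors (3 counts) cover counting error only. Other scalings and left-out libraries of the corrected fit, and the sums without Psmd5 or Igkc, were chosen after seeing the data. Members shown library by library were Psmb5 to Psmb10, Psme1, Psme2 and the lowest and highest tested gene of each other class. Members and lists were chosen with earlier results of these data known. A few genes counted in the lists are not reported here by name. edgeR was tested on simulated data. R 4.3.3, DESeq2 1.42.0, Python 3.11.15 and matplotlib 3.10.9 were also used.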

Additional observations from a re-analysis of the deposited data

How the results depend on the processing

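The number of members that fell was 46 as deposited, 42 to 47 with DESeq2, RLE, upper-quartile or library-size scaling, without mitochondrial genes, without the filter or with the replicate block, and 45 to 47 with 1 library left out. It was 17 with hepatocyte scaling (3 rose). After correction it was 13 (3 rose), and with corrected counts 13 with upper-quartile factors (3 rose), 24 with library size and 23 with hepatocyte scaling (1 rose each), and 10, 17, 6, 14, 6 and 4 without miR-206 replicates 1 to 3 and control replicates 1 to 3 in turn (3, 3, 3, 7, 2 and 2 rose). As deposited 0 to 1 rose with 1 library left out. Over all genes 13502 passed, 8472 to 19532 with 1 library left out, 1514 after correction, 1481, 1580 and 1519 with hepatocyte, library-size and upper-quartile scaling of corrected counts, and 1362, 1744, 1009, 1710, 560 and 480 when corrected fits left out those libraries in the same order. The correction tests fewer genes. The cause of the other shifts was not tested.

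After correction 32 of 46 members had a negative sign. As deposited 48 of 49 had a negative sign, and with hepatocyte scaling of the deposited counts 37 of 49 did. Among the members described library by library, signs turned for 6 genes. With hepatocyte scaling, after correction, and with corrected counts under hepatocyte, library-size and upper-quartile scaling, Psmd11 had 0.70, 1.09, 0.51, 0.35 and 1.08, Psme4 1.02, 1.36, 0.77, 0.61 and 1.35, and Psmd5 1.54, 1.95, 1.31, 1.19 and 1.95. Psmc2 had 0.39, 0.70 and 0.12 under the first 3 and 0.69 under the last, and Psmb9 0.09 and 0.20 under the first 2 and 0.20 under the last. As deposited, Psmd5 had 0.17 and Psma8 0.55 with upper-quartile factors, 0.40 and 0.86 with library size, and Psma8 1.73 with hepatocyte scaling. The ratio difference of Psmb10 to Psmb7 was 0.75 with background subtracted and -0.28 to 0.10 with 1 library left out, that of Psmb8 to Psmb5 -0.44 to 0.04, and that of Psmb9 to Psmb6 1.21 to 1.74.

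With the replicate number as a block, 46 members fell and 12059 genes passed. Same-numbered libraries deviated from their group means with correlations of 0.0071, 0.0185 and -0.00603, and differently numbered ones with -0.0147 to 0.00906. The numbers were not taken as pairs. With 3 libraries per group these values cannot exclude that same-numbered libraries share a mouse. Depth limits genes near background: 7 of 50 members lay under 2 times it in the miR-206 libraries.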
